A study of Mus musculus with 9 samples.

Results

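The interferon regulatory factors (IRFs) are a family of transcription factors, and 8 of their genes (Irf1, Irf2, Irf3, Irf4, Irf5, Irf7, Irf8 and Irf9) were followed here in RN2 cells, a line of mouse acute myeloid leukaemia that carries the MLL-AF9 fusion and NrasG12D. The genes were taken by name, as those whose probe set has that gene symbol alone in the platform annotation, which gave 8 of the 19937 genes on the array. No level decided which IRF genes entered, but the family was chosen by the knockdown-minus-control differences already known for this series. Every comparison of a Brg1 hairpin with the control is therefore given as a description of the members, its calls included. Differences among the hairpins were tested with contrasts of their own. Adjusted p-values against the control are also printed for genes around the family. Their lists were drawn up with earlier results known, so these values are a description too.

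All 9 arrays came from cells of the RN2 background with a TRMPV vector that expresses a short hairpin RNA on doxycycline, and all received 1 ug/ml of the drug for 96 h. The hairpins Brg1sh_3232, Brg1sh_3364 and Brg1sh_4935, which target Brg1, had 2 arrays each. Brg1, encoded by Smarca4, is the motor that lets SWI/SNF complexes move nucleosomes. The control hairpin Rluc, against Renilla luciferase, had 3 arrays, and its cell line is labelled with the additional term TtTMPV, so that this name and the control hairpin cannot be told apart. The series asked which transcription network lies below Brg1 in this leukaemia. Values are log2 expression after RMA, and a difference of 1 is a 2-fold change in probe signal. Array medians lay between 7.39 and 7.49. Smarca4 stood between 10.67 and 10.90 in the 6 knockdown arrays, against 11.77 to 11.79 in the 3 Rluc arrays. All 10 myeloid and progenitor markers checked (Ptprc, Kit, Mpo, Spi1, Cebpa, Itgam, Hoxa9, Meis1, Csf3r and Elane) averaged above the median gene level of 7.80, and all 8 T and B cell markers measured averaged below it. Of the 4 epithelial and stromal markers 2 averaged above it, Pecam1 at 12.03 and Col1a1 at 8.03. All 5 macrophage markers measured did too, and 0 of the 5 dendritic and 0 of the 3 erythroid markers measured. Probe sets differ in brightness, so this is a rough guide to the cell type.

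IRFs share an amino-terminal DNA-binding domain that recognises repeats of GAAA in the interferon-stimulated response element (ISRE). IRF3, IRF5 and IRF7 are held in the cytoplasm until sensors of foreign nucleic acid activate them. IRF9 is part of the complex ISGF3 that answers type I interferon, IRF1 activates and IRF2 often opposes interferon-induced genes, and IRF4 and IRF8 bind DNA with partners such as PU.1. In the blood system IRF8 is needed for monocyte and dendritic cell development and holds back granulocyte output.

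The promoters were read from RefSeq (assembly GRCm38.p6), 250 bases before to 50 after each annotated start, for which all 8 genes had at least 1 entry and 11 promoters in all. Both strands were searched for the ISRE core GAAANNGAAA and for the gamma-activated site TTCNNNGAA, an element of interferon-gamma responses. The sequences that hold a match are shown because these elements connect interferon signals to the family, with each match in capitals. Irf1 at chr11:53769764-53770063 (plus strand) had a gamma-activated site that starts 90 bases before the annotated start. Irf2 at chr8:46739495-46739794 (plus strand) had an ISRE core 241 bases and a gamma-activated site 224 bases before it. Irf8 at chr8:120736108-120736407 (plus strand) had gamma-activated sites 171 and 153 bases before it.
Irf1: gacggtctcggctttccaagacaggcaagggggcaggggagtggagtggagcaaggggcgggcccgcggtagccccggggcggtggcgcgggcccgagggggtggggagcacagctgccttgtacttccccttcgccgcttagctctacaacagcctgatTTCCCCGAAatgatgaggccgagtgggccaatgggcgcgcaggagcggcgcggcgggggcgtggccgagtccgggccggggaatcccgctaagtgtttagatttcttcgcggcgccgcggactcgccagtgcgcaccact
Irf2: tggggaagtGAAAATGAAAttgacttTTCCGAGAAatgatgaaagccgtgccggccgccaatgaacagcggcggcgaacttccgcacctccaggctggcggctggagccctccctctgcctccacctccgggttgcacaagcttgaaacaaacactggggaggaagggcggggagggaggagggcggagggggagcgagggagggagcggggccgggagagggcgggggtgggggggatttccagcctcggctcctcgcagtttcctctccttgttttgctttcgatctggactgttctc
Irf8: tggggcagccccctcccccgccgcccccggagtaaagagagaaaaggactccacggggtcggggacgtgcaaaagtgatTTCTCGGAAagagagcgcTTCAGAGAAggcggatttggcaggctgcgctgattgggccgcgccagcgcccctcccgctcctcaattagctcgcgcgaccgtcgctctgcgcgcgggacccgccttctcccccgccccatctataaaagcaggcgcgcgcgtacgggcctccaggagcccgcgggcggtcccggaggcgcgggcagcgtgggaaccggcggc

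Irf7 at chr7:141266375-141266674 (minus strand) and Irf9 at chr14:55603735-55604034 (plus strand) are shown because their distances from Rluc were the most alike among the members, as described below. Neither motif was found in these windows, nor in those of Irf3, Irf4 and Irf5, the second promoter of Irf9 or the second promoters of Irf1 and Irf8. An absent match says only that these letters are not in this window.
Irf7: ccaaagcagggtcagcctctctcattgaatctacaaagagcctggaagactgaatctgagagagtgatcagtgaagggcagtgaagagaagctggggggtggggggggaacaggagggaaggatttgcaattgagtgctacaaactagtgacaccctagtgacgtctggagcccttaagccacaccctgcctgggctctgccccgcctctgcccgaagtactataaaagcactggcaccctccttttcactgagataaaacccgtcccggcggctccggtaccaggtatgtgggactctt
Irf9: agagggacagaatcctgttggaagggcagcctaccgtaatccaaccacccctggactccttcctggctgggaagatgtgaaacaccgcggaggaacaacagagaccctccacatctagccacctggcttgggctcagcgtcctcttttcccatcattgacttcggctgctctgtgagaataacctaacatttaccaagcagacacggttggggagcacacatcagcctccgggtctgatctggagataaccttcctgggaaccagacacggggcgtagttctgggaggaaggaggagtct

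Among all 32851 RefSeq mouse promoters of this length 3.44% held the ISRE core and 8.30% the gamma-activated site. Among the 11 promoters of the family 1 held the ISRE core and 3 held the gamma-activated site. No binding was measured in these samples, so the matches are a description of the sequence.

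Irf5, Irf7 and Irf9 stood more than 2-fold above Rluc in the mean of the hairpins, Irf1 and Irf2 stood above it by less, and Irf3 and Irf4 lay within 0.07 of it. Irf8 depended on the hairpin, lying below Rluc with Brg1sh_3364 and at or above it with the other hairpins. The plot of levels by array shows each of these values.

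**Figure D1:**
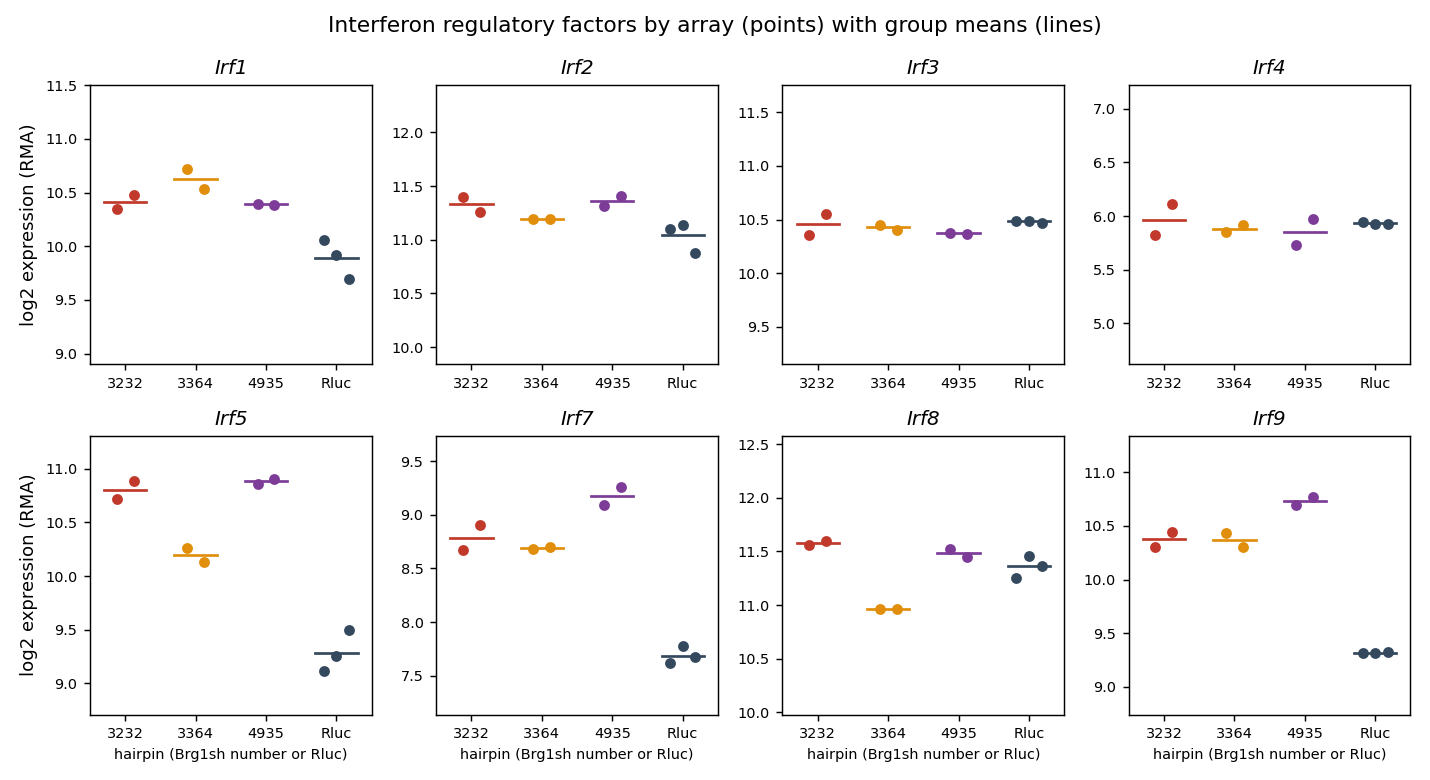
Log2 expression (RMA, vertical axis, every panel spanning the same range of log2 values) of the 8 IRF genes in each array, with points for arrays and lines for group means; the horizontal axis gives the hairpins Brg1sh_3232, Brg1sh_3364 and Brg1sh_4935 and then Rluc. All knockdown arrays of Irf1, Irf2, Irf5, Irf7 and Irf9 sit above all 3 Rluc arrays, and the Irf8 arrays of Brg1sh_3364, at 10.96, sit below the rest.

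Irf7 (probe set 10569102, Entrez 54123), which amplifies type I interferon production, was measured first among the genes tied to the interferon circuit. Its log2 level was 8.67 and 8.90 with Brg1sh_3232, 8.68 and 8.70 with Brg1sh_3364, and 9.09 and 9.26 with Brg1sh_4935, against 7.62, 7.78 and 7.67 in Rluc. The lowest knockdown array lay 0.90 above the highest Rluc array, and the arrays of Brg1sh_4935 were the highest. The log2 difference from Rluc was 1.10 with Brg1sh_3232, 1.00 with Brg1sh_3364 and 1.49 with Brg1sh_4935 (SE 0.08 each). The mean of the hairpins was 2.29-fold above Rluc, a log2 difference of 1.20 (SE 0.06).

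Irf9 (probe set 10415319, Entrez 16391) encodes the DNA-binding subunit of ISGF3. It had 10.30 and 10.45 with Brg1sh_3232, 10.43 and 10.30 with Brg1sh_3364, and 10.69 and 10.77 with Brg1sh_4935, against 9.32, 9.31 and 9.32 in Rluc. The Rluc arrays were nearly equal, and the nearest knockdown array was 0.98 above them. The log2 differences from Rluc were 1.06 with Brg1sh_3232, 1.05 with Brg1sh_3364 and 1.41 with Brg1sh_4935 (SE 0.06 each), and the mean of the hairpins was 2.25-fold above Rluc, at 1.17 (SE 0.05). With each gene expressed as its distance from its own Rluc mean, Irf7 and Irf9 differed by a root mean square of 0.08 over the 6 knockdown arrays, the smallest value among all pairs of members. Irf3 and Irf4, which both lay near Rluc, came next at 0.09, so a small value also arises between genes that hardly differ from Rluc.

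Irf5 (probe set 10536898, Entrez 27056) encodes the factor that Toll-like receptors activate through MyD88, and it had the largest difference of the 8 genes in the mean of the hairpins, with Brg1sh_3232 and with Brg1sh_4935, while Irf9 had the largest with Brg1sh_3364. Levels were 10.72 and 10.89 with Brg1sh_3232, 10.26 and 10.14 with Brg1sh_3364, and 10.86 and 10.91 with Brg1sh_4935, against 9.11, 9.25 and 9.50 in Rluc. The knockdown and Rluc arrays were 0.64 apart at their nearest, and Brg1sh_3364 lay between the other hairpins and Rluc. The log2 difference was 1.52 with Brg1sh_3232, 0.91 with Brg1sh_3364 and 1.60 with Brg1sh_4935 (SE 0.10 each), and the mean was 2.53-fold above Rluc, at 1.34 (SE 0.08).

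Irf3 (probe set 10552812, Entrez 54131), which like IRF7 is phosphorylated by TBK1, showed no such distance. It had 10.36 and 10.55 with Brg1sh_3232, 10.45 and 10.41 with Brg1sh_3364, and 10.38 and 10.36 with Brg1sh_4935, against 10.49, 10.49 and 10.47 in Rluc. The groups overlapped, and the mean difference was -0.06 (SE 0.05).

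Irf1 (probe set 10376060, Entrez 16362), a gene that interferon-gamma induces, had 10.35 and 10.47 with Brg1sh_3232, 10.72 and 10.53 with Brg1sh_3364, and 10.40 and 10.39 with Brg1sh_4935, against 10.06, 9.92 and 9.69 in Rluc. The knockdown arrays lay above the Rluc arrays, 0.30 apart at their nearest, and Rluc spread more than the knockdown groups. The log2 differences were 0.52 with Brg1sh_3232, 0.74 with Brg1sh_3364 and 0.51 with Brg1sh_4935 (SE 0.10 each), with a mean of 0.59 (SE 0.08). A second Irf1 probe set (10385870), annotated with a single transcript accession, had a mean difference of 0.08 (SE 0.05), and averaging the 2 probe sets gave 0.33.

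Irf2 (probe set 10571705, Entrez 16363), the competitor of IRF1 at shared sites, had 11.40 and 11.26 with Brg1sh_3232, 11.19 and 11.19 with Brg1sh_3364, and 11.32 and 11.40 with Brg1sh_4935, against 11.10, 11.14 and 10.88 in Rluc. The knockdown arrays lay above the Rluc arrays by a margin of 0.06 at their nearest. The log2 differences were 0.29, 0.15 and 0.32 for Brg1sh_3232, Brg1sh_3364 and Brg1sh_4935 (SE 0.08 each), with a mean of 0.25 (SE 0.06).

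Irf8 (probe set 10576034, Entrez 15900) lay below Rluc with Brg1sh_3364 and not with the other hairpins. Levels were 11.56 and 11.59 with Brg1sh_3232, 10.96 and 10.96 with Brg1sh_3364, and 11.52 and 11.44 with Brg1sh_4935, against 11.26, 11.46 and 11.37 in Rluc. The arrays of Brg1sh_3364 were below every other array, those of Brg1sh_3232 were above every Rluc array, and those of Brg1sh_4935 overlapped Rluc. The log2 difference was 0.22 with Brg1sh_3232, -0.40 with Brg1sh_3364 and 0.12 with Brg1sh_4935 (SE 0.06 each), and the mean over hairpins was -0.02 (SE 0.05).

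Irf4 (probe set 10404389, Entrez 16364), the close relative of Irf8 that acts in lymphocytes and in some macrophages, had 5.82 and 6.11 with Brg1sh_3232, 5.85 and 5.91 with Brg1sh_3364, and 5.73 and 5.97 with Brg1sh_4935, against 5.95, 5.93 and 5.93 in Rluc. Its groups overlapped, with a mean difference of -0.03 (SE 0.07). No detection calls were used, so these values do not show whether the transcript was present.

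**Figure D2:**
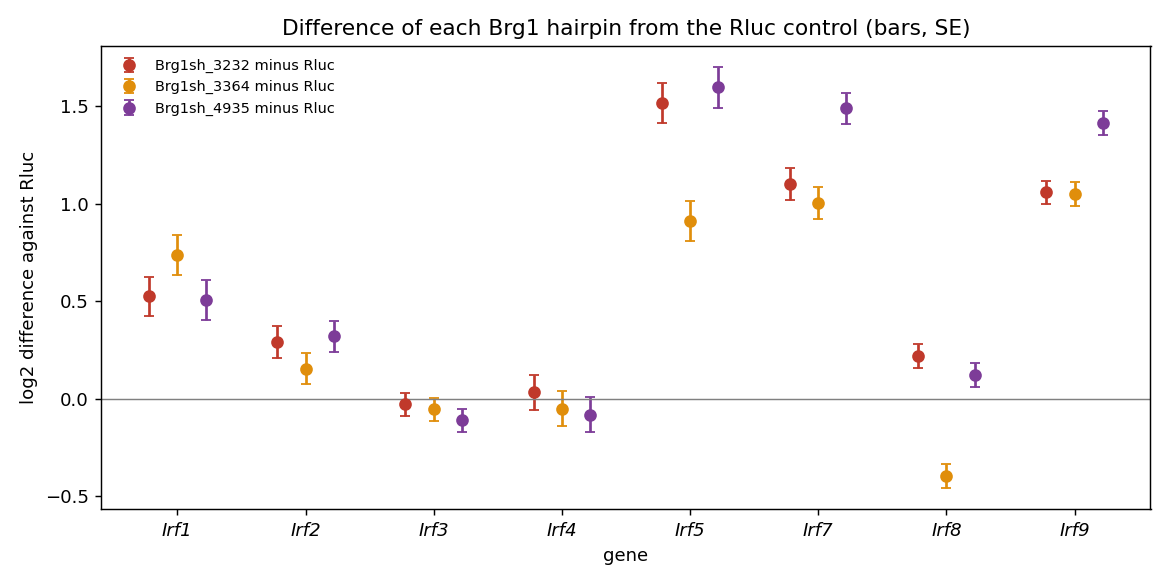
Log2 difference of each Brg1 hairpin from Rluc (vertical axis) for the 8 IRF genes (horizontal axis); points are differences of group means, bars are SE, and the same 3 Rluc arrays serve all hairpins. Irf5, Irf7 and Irf9 sit between 0.91 and 1.60 with every hairpin, and Irf8 is at -0.40 with Brg1sh_3364.

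In the limma fit across all 19937 genes, with calls at a Benjamini-Hochberg adjusted p under 0.05, the mean of the hairpins was called higher than Rluc for 5 of the 8 genes (Irf1, Irf2, Irf5, Irf7 and Irf9) and lower for 0, where 13.3% of all genes were called higher and 15.0% lower. The same 5 genes had all knockdown arrays above all Rluc arrays, which held for 10.7% of all genes, and 12.1% of all genes had them all below. With Brg1sh_3232 6 were called higher, the same 5 and Irf8, and 0 lower, against 9.59% and 11.3% of all genes. Irf8 was not called there in 11 of 17 alternatives, among them 8 of the 9 that leave out 1 array (all but Rluc replicate 2), whereas its call below Rluc with Brg1sh_3364 remained in all 17. With Brg1sh_3364 4 were called higher (Irf1, Irf5, Irf7 and Irf9) and Irf8 was called lower, against 13.6% and 12.2% of all genes. With Brg1sh_4935 5 were called higher and 0 lower, against 9.79% and 12.3% of all genes. The median log2 difference of the 8 genes was 0.42, beside -0.00 over all genes. At an unadjusted p under 0.05 the counts of 0 lower genes stayed at 0. Since the family was chosen with these differences known, nothing is read from these counts. Irf2 was not called when the hairpin was a random block (adjusted p = 0.114, range over all alternatives 0.00631 to 0.114). In bulk RNA, a changed number of cells of a kind and a changed amount of RNA per cell cannot be told apart.

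Macrophage markers were higher in the knockdown arrays, as Irf1, Irf2, Irf5, Irf7 and Irf9 were. Against 13.3% of all genes, all 5 measured (Csf1r, Adgre1, Cx3cr1, Mpeg1 and Cd68) were called higher in the mean of the hairpins than in Rluc. Their average log2 level per array was 12.06 to 12.15 with Brg1sh_3232, 11.72 to 11.73 with Brg1sh_3364 and 12.17 to 12.20 with Brg1sh_4935, against 10.88 to 10.93 in Rluc. Of the 5 dendritic cell markers (Flt3, Zbtb46, Siglech, Clec9a and Xcr1) 0 were called by limma, also at an unadjusted p under 0.05, and their average was 6.32 to 6.45 in knockdown arrays and 6.32 to 6.40 in Rluc arrays. The 10 myeloid and progenitor markers went both ways, with 5 called higher and 4 lower, beside 13.3% and 15.0% of all genes. The part of these marker sets in the levels of the IRF genes was not tested.

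Whether the hairpins differ among themselves is a separate question, asked here with contrasts that leave the control out. Irf5, Irf7, Irf8 and Irf9 differed among the 3 hairpins and Irf1, Irf2, Irf3 and Irf4 did not pass the test. By the moderated F test 4 of the 8 genes were called, beside 10.5% of all genes. Irf8 had the smallest adjusted p in the family (limma, 0.00164), followed by Irf5 (0.0104), Irf9 (0.0121) and Irf7 (0.0173). For the other four genes the adjusted p lay between 0.326 for Irf1 and 0.714 for Irf4. Of the 24 pairwise differences, 8 genes by 3 pairs of hairpins, 7 were called.

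Irf8 was lower with Brg1sh_3364 than with Brg1sh_3232 by a log2 difference of -0.61 (SE 0.07, limma adjusted p = 0.00106). It was higher with Brg1sh_4935 than with Brg1sh_3364 by 0.52 (SE 0.07, adjusted p = 0.00269). Between Brg1sh_4935 and Brg1sh_3232 the difference was -0.10, with a 95% interval of -0.25 to 0.06. The order was therefore Brg1sh_3364 lowest, with the other hairpins not told apart.

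Irf5 had the same order. It was lower with Brg1sh_3364 than with Brg1sh_3232 by -0.60 (SE 0.11, adjusted p = 0.0126) and higher with Brg1sh_4935 than with Brg1sh_3364 by 0.68 (SE 0.11, adjusted p = 0.00796). The difference between Brg1sh_4935 and Brg1sh_3232 was 0.08 (95% interval -0.18 to 0.34). Irf5 with Brg1sh_3364 was still above every Rluc array, which Irf8 was not.

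Irf9 and Irf7 had another order, with Brg1sh_4935 highest. Irf9 was higher with Brg1sh_4935 than with Brg1sh_3364 by 0.36 (SE 0.07, adjusted p = 0.0113) and than with Brg1sh_3232 by 0.36 (SE 0.07, adjusted p = 0.0473). Irf7 was higher with Brg1sh_4935 than with Brg1sh_3364 by 0.48 (SE 0.09, adjusted p = 0.0119). Against Brg1sh_3232 the Irf7 difference was 0.39 (95% interval 0.19 to 0.59), and its adjusted p of 0.0854 missed the threshold. Brg1sh_3364 and Brg1sh_3232 were not told apart for Irf9 (-0.01, 95% interval -0.16 to 0.14) or for Irf7 (-0.10, 95% interval -0.30 to 0.10).

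Over all genes 9.66% were called between Brg1sh_3364 and Brg1sh_3232, 7.61% between Brg1sh_4935 and Brg1sh_3364, and 1.02% between Brg1sh_4935 and Brg1sh_3232. In the family these pairs called 2 genes (Irf5 and Irf8), 4 genes (Irf5, Irf7, Irf8 and Irf9) and 1 gene (Irf9). For Irf1 the interval between Brg1sh_4935 and Brg1sh_3364 was -0.48 to 0.02 and that between Brg1sh_3364 and Brg1sh_3232 was -0.04 to 0.46, so a difference of either size may have gone undetected. For Irf2, Irf3 and Irf4 the intervals of all pairs lay between -0.34 and 0.36. The F test call of Irf8 remained under all 17 alternatives (adjusted p 0.000318 to 0.0279). Those of Irf5, Irf7 and Irf9 did not withstand the loss of every array. Irf5 and Irf7 were not called without Brg1sh_3364 replicate 1, without its replicate 2, or without Brg1sh_4935 replicate 2. Irf9 was not called without Brg1sh_4935 replicate 1 or without its replicate 2. Each of these fits leaves 1 array in a hairpin group, so a lost call does not show that 1 array carried the difference.

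**Figure D3:**
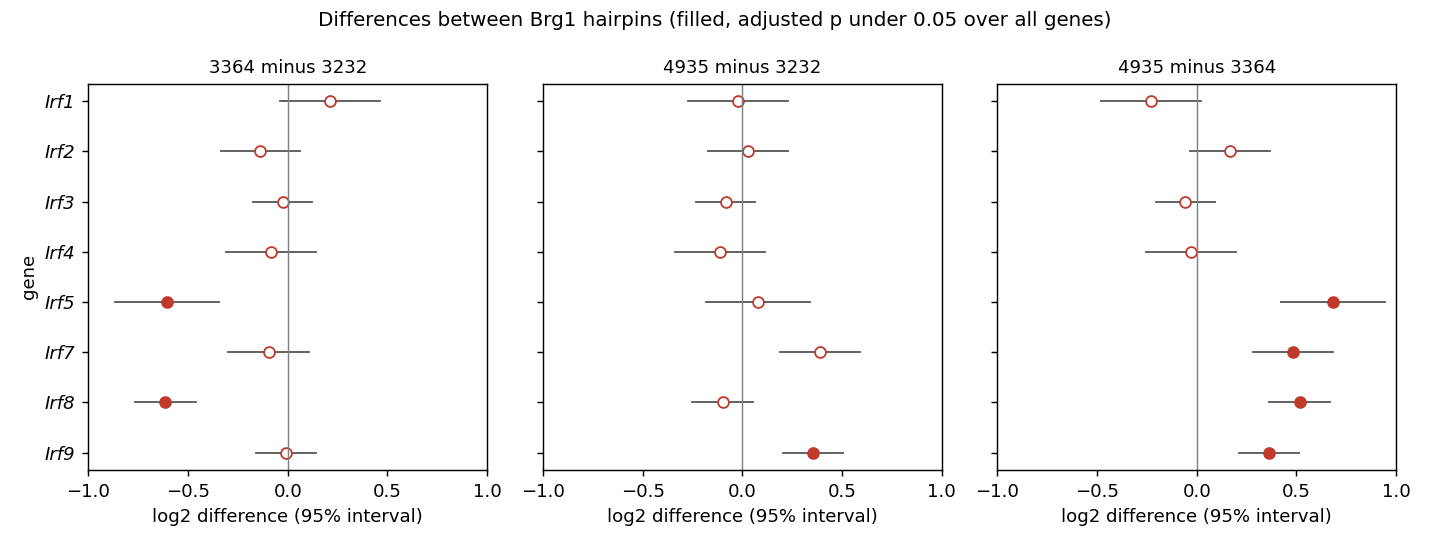
Log2 differences between pairs of Brg1 hairpins (horizontal axes, 1 panel per pair, named as first minus second) for the 8 IRF genes (vertical axis); lines are 95% intervals and filled points have an adjusted p under 0.05 over all genes. Irf5 and Irf8 are lower with Brg1sh_3364 than with Brg1sh_3232, by -0.60 and -0.61, and Irf9 is higher with Brg1sh_4935 than with each of the other hairpins.

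Genes whose profile was most like each member with group means at least 1 apart (Irf5, Irf7 and Irf9) were found by the root mean square difference over the 6 knockdown arrays, each gene being set against its own Rluc mean. For Irf5 these were Gpr183, an oxysterol receptor of immune cells, at 0.08, Slfn8, of the Schlafen family, at 0.09, and Wfdc17 at 0.11, where the median gene was 1.38 away. For Irf7 they were Klra2, of the Ly49 lectin-like receptors, at 0.07, Clec7a, the beta-glucan receptor Dectin-1, at 0.08, and the annexin gene Anxa4 at 0.09, with the median gene 1.22 away. For Irf9 they were Anxa4 at 0.05, Slc25a35, of the mitochondrial carrier family, at 0.09, and Klra2 at 0.10. Most genes changed little, with a median absolute log2 difference of 0.07 in the mean of the hairpins against Rluc. The distance of the median gene therefore mostly restates the member's own difference from Rluc, and nothing is read from it. Gpr183, for example, differed from Rluc by 1.51 with Brg1sh_3232, 0.88 with Brg1sh_3364 and 1.61 with Brg1sh_4935.

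Genes around the family were counted in 8 lists by role, 103 genes in all, of which 38 rose (36.9%) and 14 fell (13.6%) in the mean of the hairpins against Rluc, beside 13.3% and 15.0% of all genes, the shares to set beside each list below. These lists too were drawn up with earlier results of the series known. Their median log2 difference was 0.05, beside -0.00 over all genes. With the hairpin as a random block 20 were higher and 7 lower, and of the genes named with the lists Socs1 (adjusted p = 0.107), Trim21 (0.0918), Cxcl10 (0.0898), Il15 (0.0696), Cybb (0.0833), Spi1 (0.0548) and Cgas (0.124) were then not called. The shares of all genes given above are those of the fit of group means. The share under the random block was not counted, so the random block counts have no background beside them and nothing is read from them.

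Interferon genes themselves did not pass the test: of 15 measured ligand genes 0 rose and 0 fell (limma, 1 of 15 at an unadjusted p under 0.05). With single hairpins 1 was called, Ifna13 with Brg1sh_3364, at -0.29 (SE 0.07, adjusted p = 0.0183). With that hairpin 12.2% of all genes were called lower. Ifnb1, the interferon-beta gene, lay between 5.73 and 6.09 in knockdown arrays and between 5.76 and 5.89 in Rluc arrays, with a difference of 0.06 (SE 0.05, limma adjusted p = 0.508). Ifng had a difference of -0.03 (SE 0.04, adjusted p = 0.618). These are levels without detection calls, so they do not show whether any interferon was made.

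Most measured receptor and signalling genes rose. Of the 10 in this list 9 rose and 0 fell, with a median difference of 0.36. With the hairpin as a random block 6 were called higher and 0 lower. Ifnar1, a chain of the type I interferon receptor, rose by 0.60 (SE 0.04, limma adjusted p = 7.76e-06), standing at 11.41 to 11.82 in knockdown arrays and 11.02 to 11.08 in Rluc arrays. Ifnlr1, of the type III receptor, rose by 0.63 (SE 0.05), its partner chain Il10rb by 0.51 (SE 0.04) and Ifngr2, of the interferon-gamma receptor, by 0.53 (SE 0.05), with adjusted p from 1.58e-05 to 5.49e-05. Ifngr1 was the exception at -0.06 (SE 0.03, adjusted p = 0.241). Stat2, which binds IRF9, rose by 0.58 (SE 0.06, adjusted p = 0.000101).

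Of 20 measured sensors and adaptors upstream of IRF3, IRF5 and IRF7, 5 rose and 5 fell, with a median of 0.04. The random block left 3 higher and 3 lower. Tlr8, an endosomal RNA sensor, rose by 1.17 (SE 0.09, adjusted p = 2.75e-05) and Tlr7, its close relative, by 0.50 (SE 0.05, adjusted p = 0.000116). Slc15a4, the lysosomal transporter that TLR7 and TLR9 signalling requires, rose by 0.33 (SE 0.04, adjusted p = 0.00036). Sting1, the adaptor for cytosolic DNA, fell by 0.52 (SE 0.05, adjusted p = 4.07e-05). Cgas, the enzyme that signals to STING, had -0.27 (SE 0.06, adjusted p = 0.0116).

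Among DNA-binding partners of IRF4 and IRF8, levels were measured for 8 genes, of which 2 rose and 1 fell, with a median of 0.03; 1 and 1 were called with the random block. Spi1, which encodes PU.1, rose by 0.26 (SE 0.05, adjusted p = 0.00387), Ikzf1, Ikaros, rose by 0.18 (SE 0.03, adjusted p = 0.00369), and Ikzf3, Aiolos, fell by 0.40 (SE 0.06, adjusted p = 0.00088). None of the 8 passed the F test among hairpins (limma, 0 called and 1 at an unadjusted p under 0.05, the smallest adjusted p being 0.0653 for Etv6), and 0.299 was the adjusted p of Spi1.

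Of 10 measured corepressors and negative regulators 4 rose and 1 fell, with a median of 0.08, and with the random block 2 were higher and 1 lower. Usp18, which restrains the type I interferon receptor, rose by 1.90 (SE 0.09, adjusted p = 1.47e-06). Ptpn6, the phosphatase SHP-1, rose by 0.38 (SE 0.05), Trim21, a ubiquitin ligase, by 0.36 (SE 0.04) and Socs1, an inhibitor of JAK kinases, by 0.31 (SE 0.04), with adjusted p from 0.000233 to 0.000701.

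Of 20 measured targets of ISGF3 12 rose and 3 fell, with a median of 0.25. Under the random block 5 were higher and 2 lower. Besides Usp18 and Stat2, which this list also holds, the genes of smallest p were Ifit2, at 8.12 to 8.45 in knockdown arrays and 8.93 to 9.09 in Rluc arrays, which fell by 0.68 (SE 0.07, adjusted p = 9.45e-05), and Herc6, which fell by 0.50 (SE 0.05, adjusted p = 0.000153). The list thus held genes that went opposite ways, Ifit3 for example rising by 0.64 (SE 0.07, adjusted p = 0.000202). By hairpin 8 rose and 2 fell with Brg1sh_3232, 7 rose and 4 fell with Brg1sh_3364, and 12 rose and 3 fell with Brg1sh_4935, with medians of 0.24, 0.14 and 0.47. The difference between these medians was not tested. Of all genes 9.59% were higher and 11.3% lower with Brg1sh_3232. The shares were 13.6% and 12.2% with Brg1sh_3364, and 9.79% and 12.3% with Brg1sh_4935.

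Of 15 measured targets of IRF1 4 rose and 4 fell, with a median of -0.00. The random block left 2 higher (Cd274 and Tap1) and 0 lower. Cd274, which encodes PD-L1, rose by 1.07 (SE 0.11, adjusted p = 0.000142), the chemokine gene Cxcl10 by 0.85 (SE 0.12, adjusted p = 0.000629) and Tap1, of the peptide transporter, by 0.33 (SE 0.05, adjusted p = 0.00139). Il15, a cytokine gene, fell by 0.65 (SE 0.10, adjusted p = 0.000911).

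Of 7 measured genes linked to IRF8 in myeloid cells 4 rose and 0 fell, with a median of 0.17, and with the random block 3 were higher and 0 lower. Csf1r, the receptor of macrophage colony-stimulating factor, rose by 1.06 (SE 0.04, adjusted p = 3.21e-07), Bcl2l1, which encodes BCL-XL, by 0.45 (SE 0.04, adjusted p = 2.9e-05), Cst3, cystatin C, by 0.32 (SE 0.05, adjusted p = 0.000816) and Cybb, a subunit of the phagocyte oxidase, by 0.17 (SE 0.04, adjusted p = 0.0109). Csf1r was lower with Brg1sh_3364 than with Brg1sh_3232 by -0.39 (adjusted p = 0.00222), the same side as Irf8, yet it stood 0.80 above Rluc with that hairpin (SE 0.05), where Irf8 stood at -0.40.

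**Figure D4:**
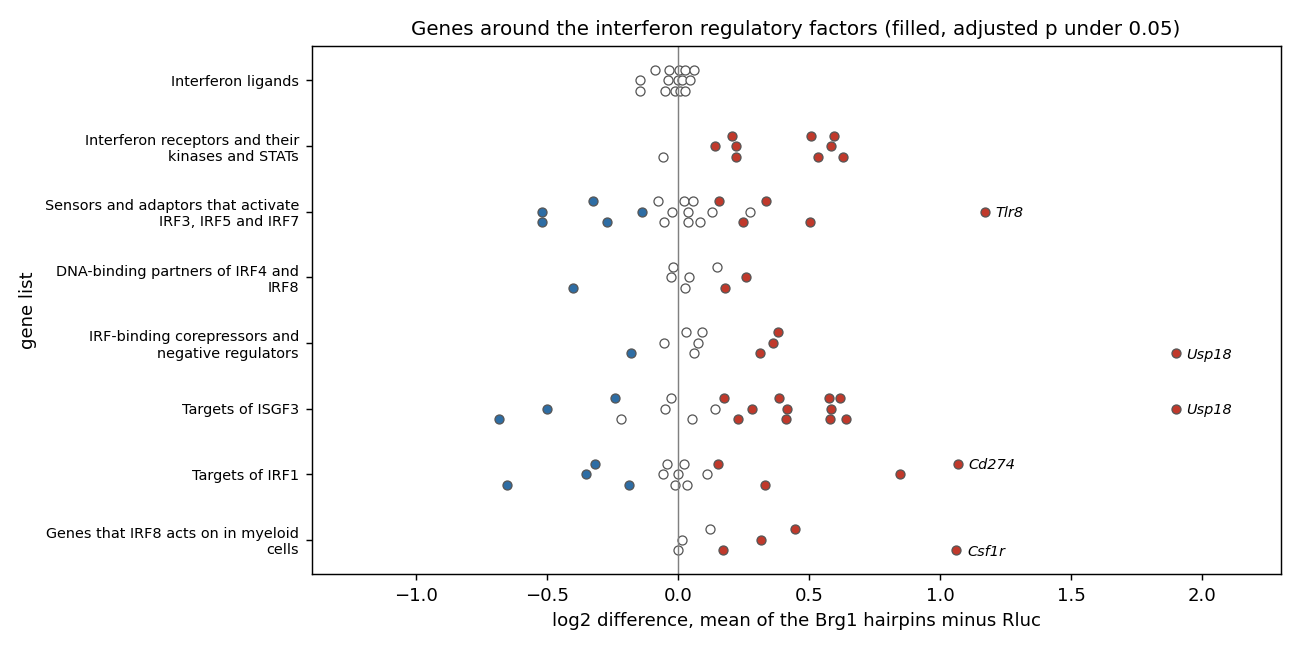
Log2 difference of the mean of the Brg1 hairpins from Rluc (horizontal axis) for the genes of the 8 lists around the IRF family (vertical axis); each point is a gene, filled red where it rose and blue where it fell at an adjusted p under 0.05, and Usp18 and Stat2 each belong to 2 lists. All 15 interferon genes are unfilled near 0, while 9 of 10 receptor and signalling genes are filled on the right.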

How the data were processed

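RNA from 9 samples of RN2 cells was measured on Affymetrix whole-transcript arrays. The authors deposited log2 values for each probe set, and RMA is named by the submitters' processing notes. Its version, software and genome build were not given in the sources used here. RMA equalises array distributions, so a shift common to most genes would be hidden. Scanner files were not used, so background correction, scan date and detection were not examined.

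Of 34760 probe sets 21640 had 1 gene symbol in the platform annotation, 1321 had several and 11799 had none. Entrez identifiers placed 21553 in a RefSeq table of GRCm38.p6 (0 symbols altered). A gene with several probe sets kept its brightest probe set by mean level, leaving 19937 genes with no filter on dim genes. A model of 4 group means was fitted in limma 3.58.1 (R 4.3.3) over all arrays (eBayes, 5 residual and 3.85 prior degrees of freedom), two-sided, with Benjamini-Hochberg adjustment over all genes and a threshold of 0.05. The fit was tested on simulated data. SE is that of the fit.

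The members, the gene lists and the tests were chosen with earlier results of these data known. Named genes are the 8 members, the target, up to 4 called genes of smallest p per list, and the 3 nearest profiles of members whose group means span at least 1; predicted, clone, small RNA, receptor-segment and olfactory names were left out of the last. Ifna13, Ifnb1, Ifng, Ifngr1, Stat2 in its first list, Cgas, Ifit3, Etv6 and the genes compared between hairpins besides the members were named after their values were seen. No label says that replicates are separate cultures; p-values may reflect only technical spread between arrays. The number of arrays limits the precision.

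Alternatives were a further quantile normalization, median centring, a filter on dim genes, averaged probe sets, testing every probe set, a trended robust eBayes, the replicate number as a block, the hairpin as a random block, a threshold of 0.01, and leaving out each array or hairpin.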

Additional observations from a re-analysis of the deposited data

Results flagged for a closer look

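Irf5, Irf7, Irf8 and Irf9 stand out because the same contrast, a Brg1 hairpin against Rluc, gave different log2 differences with different hairpins, by the moderated F test of limma. For Irf8 the differences were 0.22 with Brg1sh_3232, -0.40 with Brg1sh_3364 and 0.12 with Brg1sh_4935 (F test adjusted p = 0.00164). For Irf5 they were 1.52, 0.91 and 1.60 in the same order of hairpins (adjusted p = 0.0104). For Irf9 they were 1.06, 1.05 and 1.41 (adjusted p = 0.0121), and for Irf7 1.10, 1.00 and 1.49 (adjusted p = 0.0173). No group had the 4 arrays needed to examine single arrays for an outlying value.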

How the results depend on the processing

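The count of members called in the mean of the hairpins against Rluc was 5, and 4 to 5 under the 21 alternatives; Irf2 was the gene lost, with the replicate number as a block (adjusted p = 0.0536), with the hairpin as a random block (0.114), without the hairpin Brg1sh_4935 (0.0609) and at the threshold of 0.01. Leaving out 1 array at a time gave 3 to 6 called members for Brg1sh_3232 and 3 to 5 for Brg1sh_4935, and 5 throughout for Brg1sh_3364. The 3 came without Brg1sh_3232 replicate 2, and without either Brg1sh_4935 replicate. The F test among hairpins called 4 members, 1 when every probe set was tested (Irf8; Irf5, Irf9 and Irf7 then had adjusted p of 0.0523, 0.0502 and 0.0691), 1 at the threshold of 0.01, and 1 to 4 without single arrays (1 without Brg1sh_4935 replicate 2). Of the 103 genes around the family 52 were called, 27 with the hairpin as a random block (20 higher and 7 lower), and 43 to 55 under the other alternatives. No member called in the mean contrast changed sign there. Differences of single hairpins from Rluc were followed only as calls, and differences among the hairpins only by the F test. The pairwise differences between hairpins were not followed under the alternatives, among them that of Irf9 between Brg1sh_4935 and Brg1sh_3232. Same-numbered arrays correlated by -0.07 to 0.25 in their deviations from group means. With 2 arrays per hairpin the deviations within a hairpin are mirror images, so each pair of hairpins gave the same value for both numbers, from -0.07 to -0.02. Against Rluc, Brg1sh_3232 gave 0.19 and 0.25, and the other hairpins gave -0.07 to 0.03. These few values do not settle whether the numbers pair the arrays. The replicate block left 4 members called in the mean contrast and 47 of the genes around the family. Irf4 has no value under the filter on dim genes. Leaving out an array of a hairpin leaves 1, which is assumed to vary like the other groups. Without detection calls, low values such as those of Irf4 and the interferon genes are of unknown presence.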

Other observations

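Genes around the family also differed among the hairpins: 27 of the 103 were called by the F test (26.2%), where 10.5% of all genes were. Between Brg1sh_3364 and Brg1sh_3232 23 were called, between Brg1sh_4935 and Brg1sh_3364 19, and between Brg1sh_4935 and Brg1sh_3232 4. Of all genes these pairs called 9.66%, 7.61% and 1.02%. The lists were drawn up with earlier results of these data known, so nothing is read from these counts. The genes below were named after their values were seen. In the mean of the hairpins against Rluc, Ifih1, Psmb8, Gbp3 and Rsad2 were not called with the hairpin as a random block (adjusted p = 0.604, 0.579, 0.478 and 0.320).

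Ifih1, which encodes the cytosolic RNA sensor MDA5, had log2 differences from Rluc of 0.02 with Brg1sh_3232, 0.73 with Brg1sh_3364 and 0.00 with Brg1sh_4935 (F test, limma adjusted p = 0.000263). Ifnlr1 (0.41, 0.92 and 0.56), Trim21 (0.21, 0.63 and 0.24) and Socs1 (0.19, 0.55 and 0.21) were likewise furthest from Rluc with Brg1sh_3364, each higher there than with Brg1sh_3232 and with Brg1sh_4935 in the pairwise tests. Psmb8, an immunoproteasome subunit, had 0.11, -0.47 and -0.20 (adjusted p = 0.00102), and Gbp3, a guanylate-binding protein gene, had -0.10, -0.84 and -0.13 (adjusted p = 0.0122). Tlr9, the endosomal DNA sensor, was not called in the mean of the hairpins (0.27, adjusted p = 0.0549) but had 0.46, -0.15 and 0.51 by hairpin (adjusted p = 0.0187). Usp18, at 1.79, 1.29 and 2.63, was highest with Brg1sh_4935, as Irf7 and Irf9 were (adjusted p = 0.00104). Rsad2, an antiviral ISGF3 target, had 0.13, 0.11 and 0.60 (adjusted p = 0.00696).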
